A study of Mus musculus with 3 samples.

Results

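The external plexiform layer and the mitral layer of the mouse main olfactory bulb lie next to each other, and their transcripts were compared here on high-density spatial arrays. The members were all spots that the authors' deposited annotation places in the external plexiform layer (EPL, 651672 spots) or in the mitral layer (written M/T in the annotation and MT here, 95071 spots), together 746743 of the 2250425 spots under tissue. The samples were 3 coronal sections of main olfactory bulb from C57BL/6J mice of 12 weeks, on arrays that capture polyadenylated RNA at barcoded spots. The labels name no treatment and do not tie the sections to animals, so the sections may share an animal. P-values therefore rest only on how differences between layers varied among these sections. In the main gene tests this variation was pooled over all layers, with section as a model term. Section 1 held 252949 EPL spots and 35198 MT spots, section 2 held 202713 and 27057, and section 3 held 196010 and 32816. Whether transcripts guided the drawing of the regions was not given in the sources used here.

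Mitral layer tissue is a thin sheet of the large cell bodies of mitral cells, the glutamatergic output neurons of the bulb, mixed with granule cell bodies. The lateral dendrites of mitral cells run outward into the external plexiform layer, a wide neuropil in which they meet the spines of granule cells at reciprocal synapses, and which also holds tufted cells, local interneurons, capillaries and many astrocytes. Astrocytes take up the glutamate and GABA that leave these synapses, recycle glutamate through glutamine and buffer potassium. A spot is a small region that can hold part of a cell or pieces of several, so shares of RNA are given here and not shares of cells. Fewer cells of a type and less RNA per cell cannot be told apart in such sums.

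Counts were summed per section and layer. The EPL sums held 72694, 182699 and 125299 counts in sections 1, 2 and 3, and the MT sums held 15765, 35318 and 32015. Section 1 stood apart in both layers: deviations from the layer means correlated across genes at 0.63 between the EPL and MT sums of section 1 and were negative, from -0.60 to -0.46, between section 1 and either other section. For each gene the deviations cancel out over the sections of a layer, so a positive value within section 1 brings negative values with the others. Sections 2 and 3 also correlated with each other (0.38 and 0.43). Levels are therefore given section by section, as CPM, the count scaled to all named-gene counts of that sum, and calls are given with and without section 1. MT had the higher count density in every section, with 44.8, 131 and 97.6 counts per 100 spots against 28.7, 90.1 and 63.9 in EPL. The ratio of MT to EPL was 1.56, 1.45 and 1.53 in the 3 sections (1.51 ± 0.0566, SD, n = 3; two-sided exact permutation test over sections, p = 0.25, the smallest that 3 pairs can give). Among spots with at least 1 count, the ratio of counts per spot was 1.32 ± 0.106 (SD, n = 3) and above 1 in each section.

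All genes were tested in 1 model on the sums of all 9 layers, with layer and section as terms (edgeR quasi-likelihood, Benjamini-Hochberg adjusted p below 0.05). Of 1996 genes tested, 65 differed between EPL and MT (3.26% of those tested). Of these, 61 were higher in EPL (3.06%) and 4 were higher in MT (0.200%). A gene's scaled level depends on what else is in the sum, and the split moved with the scaling. RLE factors gave 50 genes higher in EPL and 13 higher in MT, library sizes alone gave 42 and 37, and DESeq2 gave 29 and 13. The median log2 difference of all genes was 0.04 with the main scaling, -0.09 with RLE and -0.17 with library sizes alone, so directions close to 0 were not read. None of the 65 changed direction under these 3 alternatives. The calls rested on comparing the layers within sections: without section as a term edgeR called 0 genes (84 at an unadjusted p below 0.05). They also rested on single sections, with 91 genes called without section 1, 8 without section 2 and 15 without section 3. Of the 61, 41 were above MT in 3 of 3 sections, 17 had no count in the MT sum of section 1, and 6 had no count in section 1 in either layer.

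**Figure D1:**
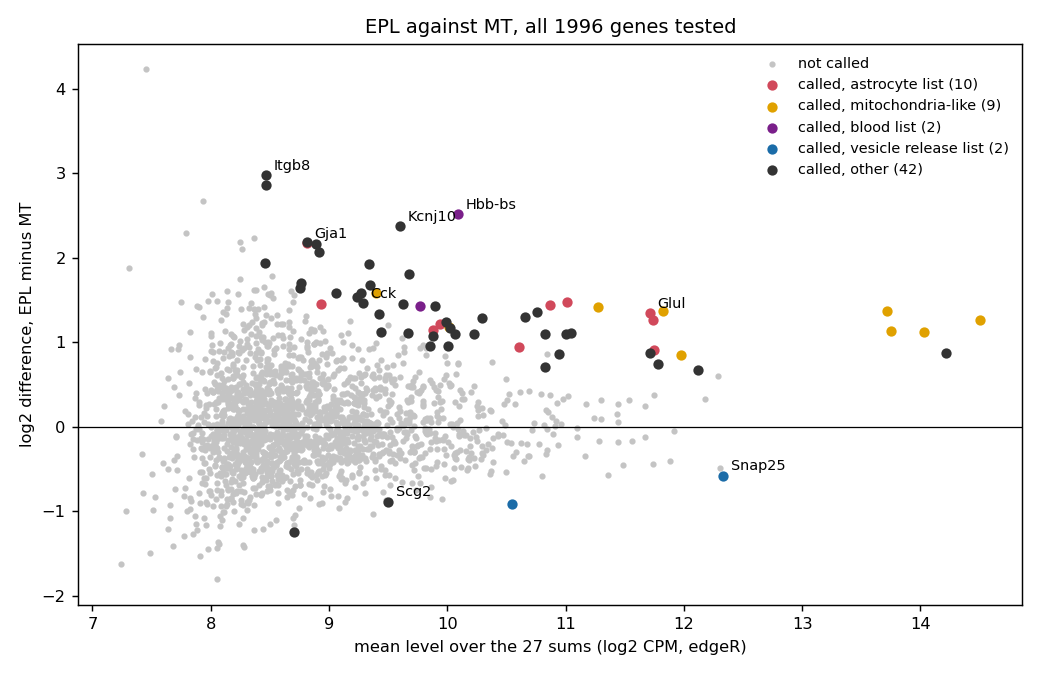
Each point is 1 of the 1996 genes tested, with its mean level over the 27 sums on the x axis (log2 CPM, edgeR) and its log2 difference, EPL minus MT, on the y axis; coloured points passed the test (61 above 0, 4 below). The called genes above 0 include 10 from the astrocyte list and 9 that resemble mitochondrial transcripts, and 4 called genes lie below 0.

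Astrocyte genes made up the group with the most calls among the cell type lists, and also the one with the most genes tested. Of 22 listed genes, 18 could be tested, 10 were higher in EPL, none was lower, and all 18 had a positive difference (median 1.07 on the log2 scale, against 0.04 over all genes tested). Their summed level was 14678, 22726 and 22746 CPM in EPL and 12179, 11212 and 11463 CPM in MT of sections 1, 2 and 3. EPL was above MT in 3 of 3 sections, by far the least in section 1, and the groups did not overlap. Without section 1 all 10 kept their call, without section 2 only Slc1a3 did, and without section 3 there were 3 that did, Slc1a2 and Glul among them; all 10 kept their direction each time.

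The transporters and enzymes of transmitter clearance were among them. Slc1a2, the main glial glutamate transporter, was at 578, 4455 and 3871 CPM in EPL and at 571, 1840 and 1843 CPM in MT of sections 1, 2 and 3. The 2 layers were level in section 1 and apart in sections 2 and 3 (log2 difference 1.26, SE 0.20, edgeR adjusted p = 6.7e-08). Slc1a3, the second glial glutamate transporter, was at 440, 1916 and 2211 CPM against 381, 991 and 562 CPM, so EPL was above MT in each section (1.48, SE 0.24, edgeR adjusted p = 9.7e-08). Glul, glutamine synthetase, which turns the glutamate taken up into glutamine, was at 1953, 3153 and 3001 CPM in EPL and at 507, 1048 and 1968 CPM in MT (1.34, SE 0.20, edgeR adjusted p = 1.3e-08). Its lowest MT value was in section 1, and the largest ratio between the layers was there too. Glul lies at chr1:153899944-153909723, plus strand, and Slc1a2 at chr2:102658659-102790784, plus strand (mm10, GENCODE M21). Of 8 tested genes of the list for GABA receptors and uptake, 2 were higher in EPL. One of them, Slc6a11, the GABA transporter of astrocytes, was at 1128, 1248 and 1301 CPM in EPL and at 761, 425 and 625 CPM in MT, without overlap (1.30, SE 0.25, edgeR adjusted p = 1.9e-05). The Slc6a11 call was lost without section 2.

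Of 9 tested ion pump genes 2 were higher in EPL and none higher in MT, and these 2 were the only positive ones (median -0.19). The list summed to 8130, 6513 and 6129 CPM in EPL and to 9007, 7758 and 7965 CPM in MT, so MT was above EPL in each section, and RLE scaling gave 1 gene higher in EPL and 2 higher in MT. Kcnj10, the inward rectifier potassium channel of astrocytes, was at 165, 870 and 798 CPM in EPL and at 0, 227 and 156 CPM in MT of sections 1, 2 and 3. Section 1 gave the lowest value in each layer, and its EPL value lay between the MT values of sections 3 and 2 (2.37, SE 0.37, edgeR adjusted p = 2.4e-08; 271 counts in EPL and 13 in MT). Gja1, the gap junction protein connexin 43, was at 165, 356 and 407 CPM against 0, 113 and 93.7 CPM, with no overlap (2.17, SE 0.49, edgeR adjusted p = 0.00066; 128 and 7 counts). Atp1b2, a sodium pump subunit of glia, was higher in EPL by 1.13 (SE 0.35), a call lost with RLE scaling, library sizes alone, DESeq2 and the join by name, and its difference was 0.38 without section 2. Slc4a4, a bicarbonate cotransporter, was higher in EPL by 1.21 (SE 0.29), without a call under DESeq2. Atp1b1, a pump subunit abundant in neurons, lay the other way without passing the test, at 3866, 2091 and 1923 CPM in EPL and 4504, 3907 and 3405 CPM in MT (edgeR adjusted p = 0.107). Aqp4, the water channel of astrocyte endfeet, Sparcl1, Aldoc and Mt1 were also among the called astrocyte genes, with differences of 1.45, 0.91, 0.94 and 1.15. In section 1 Slc4a4 and Sparcl1 were lower in EPL than in MT, at 82.5 and 127 CPM and at 1775 and 1903 CPM. Aqp4 and Mt1 had no call with RLE scaling, library sizes alone or DESeq2, and Aldoc had none with library sizes alone. Apoe, the lipid carrier of astrocytes, did not pass, at 3852, 2321 and 2690 CPM in EPL and 3933, 1642 and 1531 CPM in MT (0.60, edgeR adjusted p = 0.053).

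**Figure D2:**
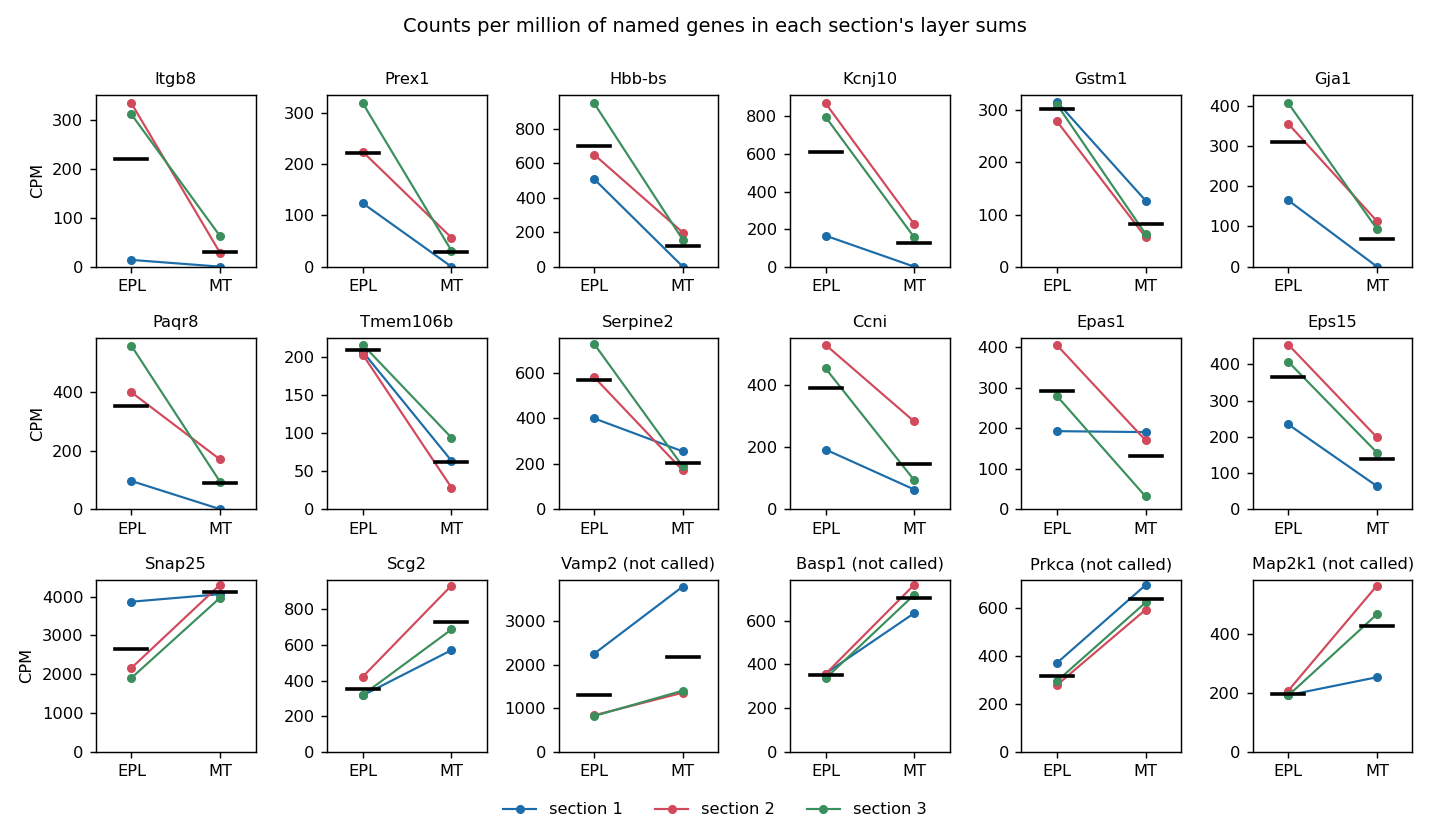
Each panel shows 1 gene, with its CPM in the EPL and MT sums of each section (coloured points joined within a section) and the mean of 3 sections (black bars). The upper 12 genes were called higher in EPL, and of the last 6 Snap25 and Scg2 were called higher in MT; section 1 is at 0 in MT for Itgb8, Prex1, Hbb-bs, Kcnj10, Gja1 and Paqr8.

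Among the 12 EPL genes with the largest fitted differences of those above MT in 3 of 3 sections, several are known for adhesion, signalling or detoxification. Itgb8, an integrin subunit that activates latent TGF-beta, had the largest, at 13.8, 334 and 311 CPM in EPL and 0, 28.3 and 62.5 CPM in MT (2.98, SE 0.65, edgeR adjusted p = 0.00036). EPL of section 1 lay within the range of MT, and only 3 counts stand behind the MT values. Prex1, an exchange factor for the small GTPase Rac, was at 124, 224 and 319 CPM against 0, 56.6 and 31.2 CPM without overlap, again with 3 counts in MT (2.86, SE 0.65, edgeR adjusted p = 0.00093). Gstm1, a glutathione transferase, was close to level across the EPL sums (316, 279 and 311 CPM) and low in MT (127, 56.6 and 62.5 CPM; 2.18, SE 0.51, edgeR adjusted p = 0.0014). Serpine2, a secreted protease inhibitor, was at 399, 580 and 726 CPM against 254, 170 and 187 CPM, and Paqr8, a membrane progestin receptor, at 96.3, 400 and 559 CPM against 0, 170 and 93.7 CPM. Tmem106b, Ccni, Epas1 and Eps15 were higher in EPL by 1.94, 1.59, 1.58 and 1.54 on the log2 scale. Epas1, the hypoxia-inducible factor HIF-2 alpha, was level in section 1 (193 and 190 CPM). Without section 1, 11 of these 12 kept their call, without section 2 Hbb-bs, Kcnj10 and Paqr8 did, and without section 3 Hbb-bs and Kcnj10 did. RLE scaling kept 11, library sizes alone 10 and DESeq2 7 of the 12, and Tmem106b was lost in all 3.

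Haemoglobin transcripts, which mark red blood cells, were scarce in MT. Hbb-bs, a beta-globin gene, was at 509, 651 and 950 CPM in EPL and at 0, 198 and 156 CPM in MT of sections 1, 2 and 3. The groups did not overlap, and the difference was 2.52 on the log2 scale (SE 0.37, edgeR adjusted p = 8.3e-09; 275 and 12 counts). Hba-a2, an alpha-globin gene, was at 523, 443 and 822 CPM against 63.4, 198 and 406 CPM (1.43, SE 0.33, edgeR adjusted p = 0.0011). Its call was lost under DESeq2, without section 2 and without section 3. Of 5 blood genes 4 were tested, 2 were higher in EPL, and all 4 were positive. Globin genes of the same class, alpha or beta, are closely alike in sequence, and how reads were divided within a class was not given in the sources used here. Endothelial and mural genes summed to 1637, 1149 and 1133 CPM in EPL and to 1395, 680 and 750 CPM in MT, with EPL above MT in each section. Both tested genes were positive (median 0.73) and neither passed: Bsg was at 935, 383 and 471 CPM in EPL and at 951, 255 and 344 CPM in MT (0.48, edgeR adjusted p = 0.50), and the other tested gene, Vtn, rested on 40 and 5 counts. Flt1 (48 counts in EPL, 3 in MT), Rgs5 (50 and 4) and Itm2a (40 and 6) were too low to test. The EPL sums held several times the counts of the MT sums, so these raw counts and those of Vtn overstate differences in share.

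Genes that resemble mitochondrial transcripts were also higher in EPL. The deposited tables hold no gene named as mitochondrially encoded, but 11 annotated nuclear genes in them have a transcript that aligns to a mitochondrially encoded one over 100 bases or more with an identity of 95% or more, and 9 of these could be tested. All 9 were higher in EPL (median 1.27), with a summed level of 25490, 88085 and 97734 CPM in EPL and 16365, 39612 and 44604 CPM in MT of sections 1, 2 and 3. They made up a much smaller share of section 1 than of the other sections in both layers, and their sum was higher in EPL within each section. Not every gene was: in section 1 Gm13339 was at 96.3 CPM in EPL and 127 CPM in MT. Gm28438 was at 894 and 1078 CPM there, and Gm28439 had no count in either layer. All 9 kept their calls without section 1, 3 did without section 2, 7 without section 3 and 6 under DESeq2. Gm28437, identical to the cytochrome oxidase subunit transcript mt-Co3 over 783 bases, was at 4581, 14926 and 17877 CPM against 2157, 6201 and 7746 CPM (1.36, SE 0.19, edgeR adjusted p = 5.4e-10). Gm10925, identical to mt-Atp6 over 678 bases, was at 8116, 26415 and 30160 CPM against 5328, 11637 and 12276 CPM (1.27, SE 0.19, edgeR adjusted p = 1.3e-08). To show how alike such copies are, 90 bases near the 3′ end of mt-Co2 (bases 592 to 681 of its transcript) are printed beside the same stretch of Gm28661 and Gm13341, in the sense direction and with bases that differ from mt-Co2 in capitals (GENCODE M21 transcripts, mm10; mt-Co2 at chrM:7604-7693 on the plus strand, Gm28661 at chr1:24614885-24614974 and Gm13341 at chr2:22587294-22587383, both on the minus strand).
mt-Co2: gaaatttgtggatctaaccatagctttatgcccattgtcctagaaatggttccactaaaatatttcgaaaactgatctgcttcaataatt
Gm28661: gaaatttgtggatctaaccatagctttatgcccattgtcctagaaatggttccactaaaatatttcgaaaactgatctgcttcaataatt
Gm13341: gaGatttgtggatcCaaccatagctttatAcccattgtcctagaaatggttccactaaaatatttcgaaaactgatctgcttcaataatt
Gm28661 has no difference from mt-Co2 over 681 bases, so reads of the 2 cannot be told apart by sequence, while Gm13341 has 3 differences in this stretch. Both were higher in EPL, Gm28661 by 1.14 (SE 0.19) at 2352, 16650 and 17646 CPM against 1966, 7786 and 8465 CPM, and Gm13341 by 1.42 (SE 0.22). The 70 tested nuclear-encoded respiratory chain genes gave no call in either direction, with 35 positive and a median of 0.01 (-0.12 with RLE scaling and -0.19 with library sizes alone). Without the 9 mitochondria-like genes in the table, 43 genes were higher in EPL and 3 in MT, all of them among the calls made with them.

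Some other called genes had no or almost no counts in section 1, so that their differences came from sections 2 and 3. Lars2, the leucyl-tRNA synthetase of mitochondria by its annotation, was at 82.5, 27849 and 21205 CPM in EPL and at 0, 17781 and 13400 CPM in MT (0.87, SE 0.21, edgeR adjusted p = 0.0017). Mir6236, Gm15564, Gm12895 and Gm12896 were at 0 in both layers of section 1, and Gm23935 was at 96.3 CPM in EPL and 0 in MT there. Each was higher in EPL, by 0.87, 1.10, 1.68, 1.92 and 0.74. Lars2 had no call under DESeq2 or in the fit on 6 sums with its own filter. Gm23935 had none under DESeq2, library sizes alone or either fit on 6 sums. Lars2, Gm15564, Gm12895, Gm12896 and Gm23935 each lost their call without section 2 and also without section 3. Mir6236 lost its call without section 2.

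The mitral layer had few calls, 4 genes in all, and 2 of them were on the list of vesicle release machinery. Snap25, a SNARE protein of the presynaptic membrane, was at 4060, 4304 and 3967 CPM in MT and at 3866, 2157 and 1899 CPM in EPL of sections 1, 2 and 3. The layers were nearly level in section 1 and clearly apart in the others, without overlap (-0.58, SE 0.17, edgeR adjusted p = 0.030). Snap25 lies at chr2:136713453-136782428, plus strand (mm10). Of 21 tested genes of the vesicle release list 2 passed, Snap25 among them, and 4 had a positive difference (median -0.47). Vamp2 (-0.57, edgeR adjusted p = 0.090), Syt1 (-0.54, edgeR adjusted p = 0.17) and Cplx1 (-0.40, edgeR adjusted p = 0.44), 3 others of its most abundant genes, did not pass. The list summed to 21250, 15828 and 16805 CPM in MT and to 17168, 9070 and 9354 CPM in EPL, so MT was above EPL in each section while the EPL value of section 1 lay within the MT range. With library sizes alone 6 genes of the list were called higher in MT, and with RLE scaling 3 were.

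Scg2, a granin that is packed into dense-core vesicles and cut into secretoneurin, was at 571, 934 and 687 CPM in MT and at 316, 421 and 319 CPM in EPL of sections 1, 2 and 3, without overlap (-0.89, SE 0.26, edgeR adjusted p = 0.030). Over the 9 layers its mean was highest in MT (731 CPM), with 440 CPM in the external granule cell layer as the next. The 250 bases before its start site (RefSeq, GRCm38.p6, chr1:79440027-79440276, minus strand) are printed with those of Gpm6b (chrX:166238693-166238942, plus strand), a membrane glycoprotein that was higher in EPL (1.36, SE 0.25), because each holds the cyclic AMP response element TGACGTCA, shown in capitals.
Scg2: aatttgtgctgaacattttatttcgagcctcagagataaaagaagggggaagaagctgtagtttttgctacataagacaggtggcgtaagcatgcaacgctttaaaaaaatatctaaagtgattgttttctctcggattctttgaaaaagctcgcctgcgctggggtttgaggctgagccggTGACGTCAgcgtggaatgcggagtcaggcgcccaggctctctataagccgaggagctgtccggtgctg
Gpm6b: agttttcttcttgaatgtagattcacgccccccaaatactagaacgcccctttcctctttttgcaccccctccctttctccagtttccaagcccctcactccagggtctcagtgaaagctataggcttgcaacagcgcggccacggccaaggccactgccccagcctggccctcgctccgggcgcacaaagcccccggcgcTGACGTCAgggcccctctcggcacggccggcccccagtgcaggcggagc
The element is a palindrome, so both strands give the same matches. It starts 68 bases before the start site of Scg2 and 49 bases before that of Gpm6b, and it is in 508 of all 32851 promoters of that length in the table (1.55%). Of the genes higher in EPL 40 matched the table by symbol, with 51 promoters. Of these 2 hold it (3.92%), that of Gpm6b and 1 of the 3 of Ahcyl1, too few to compare with the share of all promoters. The Ahcyl1 call was lost with RLE scaling, library sizes alone and DESeq2, and the Gpm6b call was lost without section 3. Scg2 was the 1 of the 4 genes higher in MT that matched.

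The 4 calls in MT rested on few sections. All 4 held without section 1, when 20 genes in all were higher in MT, and none held without section 2 or without section 3. Snap25 also lost its call when the model was fitted on the 6 EPL and MT sums alone, at a difference of -0.55 with the same genes. It lost it too when spots were joined to regions by name and with no filter on low counts (-0.21). Scg2 lost its call with the join by name (-0.74) and with no filter on low counts (-0.54). The genes next in order of p under the naming rule, Vamp2 and 3 others, did not pass. Map2k1, a kinase of the MAP kinase cascade, was at 254, 566 and 469 CPM in MT and 193, 208 and 192 CPM in EPL. Basp1, a growth-associated membrane protein, was at 634, 764 and 718 CPM in MT and 358, 356 and 335 CPM in EPL (-0.83, edgeR adjusted p = 0.060), a gap of similar size in each section. Prkca, a protein kinase C, was at 698, 595 and 625 CPM in MT and 371, 279 and 295 CPM in EPL. With RLE scaling, library sizes alone and DESeq2 all 4 of these genes passed with the same direction.

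The layer names were checked against marker genes. Mitral and tufted cell genes summed to 4757, 3030 and 3592 CPM in MT and to 5200, 2178 and 2283 CPM in EPL, so MT was above EPL in sections 2 and 3 and below it in section 1. Both means, 3793 ± 881 and 3220 ± 1715 CPM (SD, n = 3), were above that of each other layer, though the next, 2506 CPM in the glomerular layer, lay within the spread of EPL. None of the 5 tested genes differed between the layers. Doc2g, a vesicle protein abundant in mitral and tufted cells, was at 1459, 680 and 593 CPM in MT and 1389, 640 and 790 CPM in EPL, and Cdhr1, a cadherin of these cells, at 761, 651 and 781 CPM against 922, 432 and 391 CPM. Slc17a7, the vesicular glutamate transporter, was at 1459, 623 and 875 CPM in MT and 1802, 443 and 503 CPM in EPL. Tbx21, which defines these cells, was found with 10 counts in MT and 15 in EPL, and Tbr1 with 2 and 5, too few to test. These are raw counts, and the EPL sums held 72694, 182699 and 125299 counts in all, against 15765, 35318 and 32015 in MT. The raw counts of Tbx21 and Tbr1 therefore do not show a higher share in EPL. Cck, a neuropeptide of tufted cells, was higher in EPL, at 880, 367 and 471 CPM against 444, 142 and 156 CPM (1.46, SE 0.35, edgeR adjusted p = 0.0017), with EPL above MT in each section; without section 2 or section 3 the call was lost. It was the only tested gene of the 7 on the tufted cell list. Calb2, the only tested gene of the list for external plexiform interneurons, was at 605, 317 and 407 CPM in EPL and 1396, 736 and 437 CPM in MT (-0.71, edgeR adjusted p = 0.13). It was called higher in MT with RLE scaling (-0.85), library sizes alone (-0.90) and DESeq2 (-0.85). Vip had 33 counts in EPL and 3 in MT, again raw counts from sums of unequal size.

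**Figure D3:**
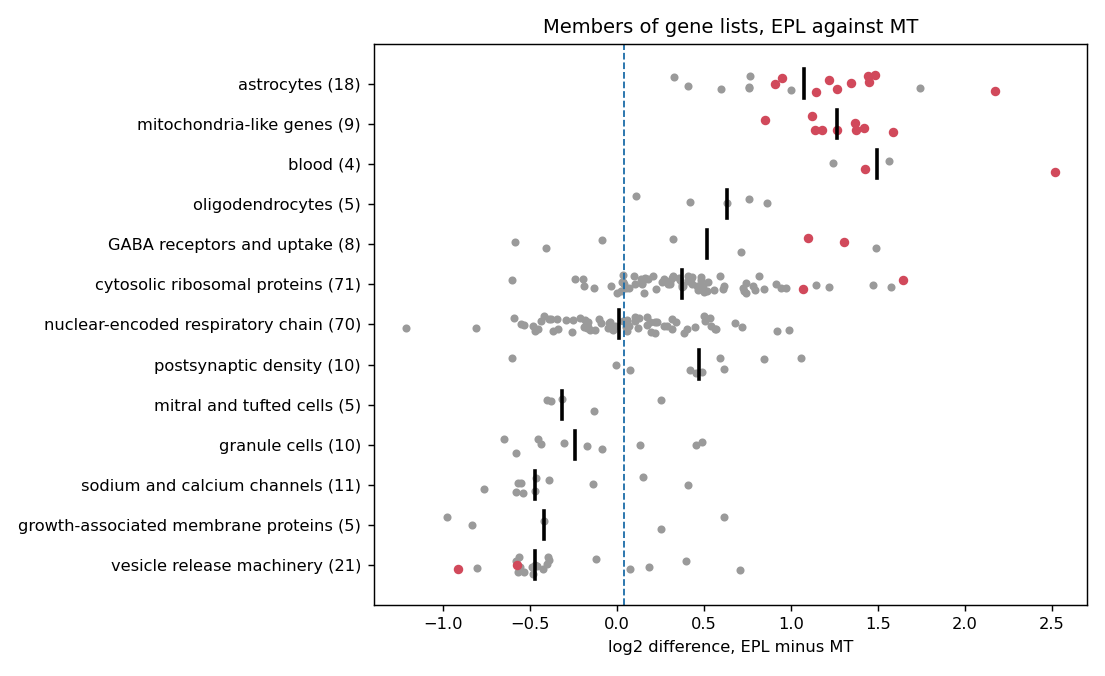
Each point is the log2 difference, EPL minus MT, of 1 tested member of a gene list (number tested in brackets); red points passed the test, black bars are list medians and the dashed line is the median of all genes tested. The astrocyte, mitochondria-like and blood lists lie to the right of 0 throughout, while the vesicle release list and the sodium and calcium channel list lie mostly to the left, with 2 and 0 calls.

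Other neuronal groups gave few or no calls. Of 10 granule cell genes tested none passed, 3 were positive and the median was -0.24; their sum was 6597, 7079 and 6403 CPM in MT and 6108, 4839 and 4214 CPM in EPL, without overlap. Gad1, the GABA-synthesising enzyme of granule cells, was at 2220, 2095 and 1624 CPM in MT and 1926, 1303 and 846 CPM in EPL (-0.44, edgeR adjusted p = 0.26). Of 11 tested sodium and calcium channel genes none passed and 2 were positive (median -0.48), with sums of 3172, 3086 and 3155 CPM in MT and 2545, 2146 and 1915 CPM in EPL. Potassium channel genes gave 1 call among 10 tested, the glial Kcnj10, and a negative median (-0.25). Postsynaptic density genes gave no call among 10 tested, with 8 positive and a median of 0.47; Shank1, a scaffold protein of dendritic spines, was at 413, 870 and 846 CPM in EPL and 254, 538 and 562 CPM in MT (0.84, edgeR adjusted p = 0.054). Map2, whose mRNA is carried into dendrites, was at 605, 2611 and 2378 CPM in EPL and 381, 2463 and 2155 CPM in MT, and did not pass (edgeR adjusted p = 0.49). Map1a, another microtubule protein, was the 1 gene of 24 tested cytoskeletal genes that was higher in EPL, at 674, 1883 and 1604 CPM against 634, 1218 and 1093 CPM (0.70, SE 0.21, edgeR adjusted p = 0.032). It did not pass with RLE scaling, library sizes alone, DESeq2, the 6 sums alone or without section 2 or 3.

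Of 71 ribosomal protein genes tested 65 were positive (median 0.38), against 54 with RLE scaling and 48 with library sizes alone. Rps24 and Rps27 were higher in EPL, neither with a call under RLE scaling, library sizes alone or DESeq2. Glial groups besides astrocytes had few calls. None of 5 oligodendrocyte genes passed. Cst3, the only tested gene of the microglia list and one that astrocytes also express, was higher in EPL (0.68, SE 0.19, edgeR adjusted p = 0.017), with a difference of 0.43 without section 3. Fabp7, on the list for olfactory ensheathing glia and also known from radial glia and astrocytes, was higher in EPL (1.09, SE 0.34, edgeR adjusted p = 0.039). Neither Cst3 nor Fabp7 was called with RLE scaling, library sizes alone or DESeq2, or without section 2 or 3, and Fabp7 was not called without section 1. With RLE scaling and library sizes alone the ensheathing glia list gave 1 gene higher in MT and none in EPL. Outside the lists, Ptprz1 and Ptn, a receptor phosphatase and its secreted ligand pleiotrophin, were both higher in EPL, by 1.16 (SE 0.27) and 1.10 (SE 0.26; named after their values were seen). Both were lower in EPL than in MT in section 1, at 68.8 and 190 CPM for Ptprz1 and at 248 and 381 CPM for Ptn, and above it in the other sections. Neither was called under DESeq2, without section 2 or without section 3. Of the other lists, glutamate receptors (8 tested), dendritically localised transcripts (5), growth-associated proteins (5), calmodulins and their partners (8), neuroblasts (5), periglomerular cells (3), olfactory sensory axons (3), immediate early genes (3), matrix proteoglycans (2) and long noncoding RNAs (1) gave no call, and no oligodendrocyte precursor gene could be tested. The glycolysis list gave 1 call among 15 tested, Aldoc, and the list of neuropeptides and granins gave Cck and Scg2 among 9.

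These are shares of a sum, and MT had more counts per spot. Per spot, 58 of the 61 genes higher in EPL by share were also denser in EPL, and 3 (Gm23935, Map1a and Cst3) were slightly denser in MT, with density ratios of 1.03, 1.01 and 1.07. Glul had 0.66 times and Hbb-bs 0.31 times the counts per spot in MT that it had in EPL. Snap25 and Scg2 had 2.65 and 3.18 times the counts per spot in MT.

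**Figure D4:**
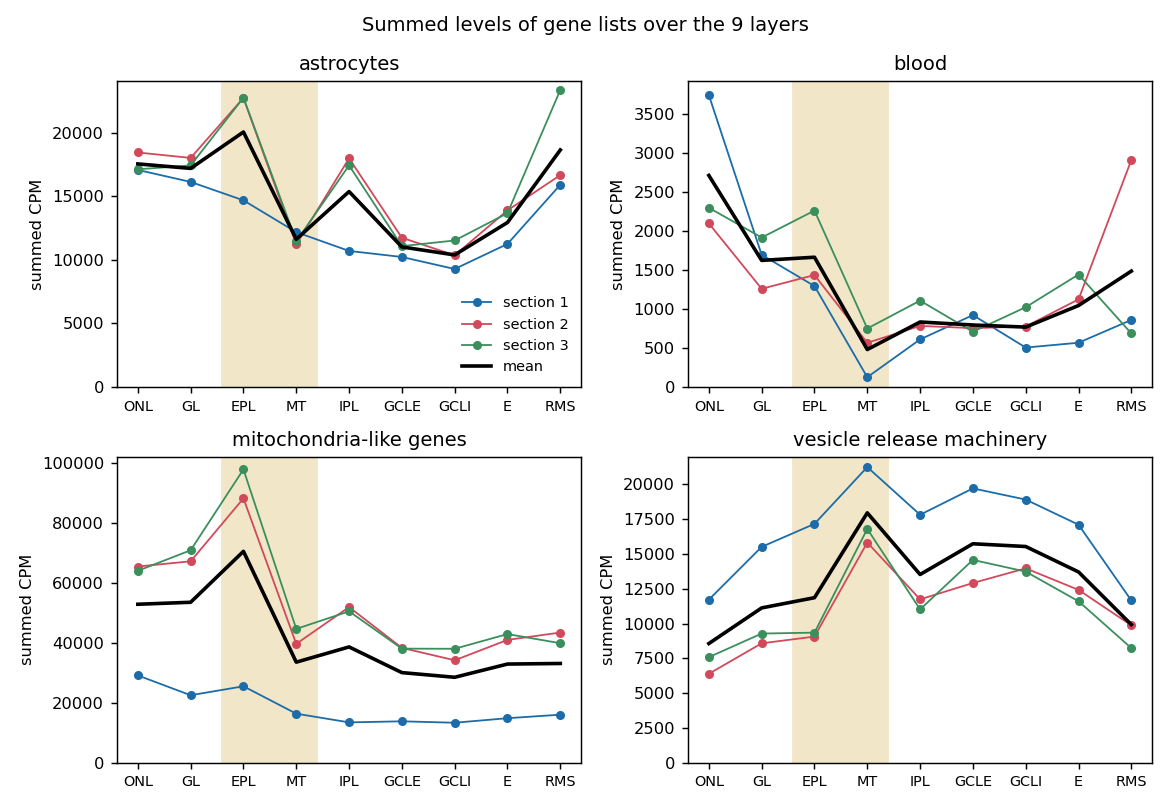
Summed CPM of 4 gene lists in the 9 layers, ordered from the outside to the inside of the bulb (ONL, nerve; GL, glomerular; EPL; MT; IPL, internal plexiform; GCLE and GCLI, external and internal granule cell; E, ependymal zone; RMS, rostral migratory system), with 1 line per section and the mean in black. Astrocyte genes fall from 20050 to 11618 CPM from EPL to MT and stand at 15368 CPM in IPL, blood genes are lowest in MT (481 CPM), and vesicle release genes are highest in MT (17961 CPM).

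Across the other layers, the MT sums had lower means for astrocyte and blood transcripts than both neighbouring layers. Astrocyte genes averaged 20050 ± 4652 CPM in EPL, 11618 ± 501 CPM in MT and 15368 CPM in the internal plexiform layer on the far side of MT (SD, n = 3). The external and internal granule cell layers had means of 11016 and 10388 CPM, both below that of MT. In section 1 the internal plexiform layer, at 10701 CPM, was also below MT, at 12179 CPM. Hbb-bs had its lowest mean of the 9 layers in MT (118 CPM), against 455 CPM in the internal plexiform layer. Vesicle release genes had their highest mean in MT, 17961 ± 2890 CPM, above the granule cell layers at 15738 and 15542 CPM, though by less than the SD. The glomerular and granule cell layers share no counts with EPL or MT and were compared in the same model. Of the 61 genes higher in EPL, 60 were lower in the pooled granule cell layers than in the glomerular layer (median -1.01), and all 4 genes higher in MT were higher in the granule cell layers. Over all genes tested 894 were higher and 1102 lower there.

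**Figure D5:**
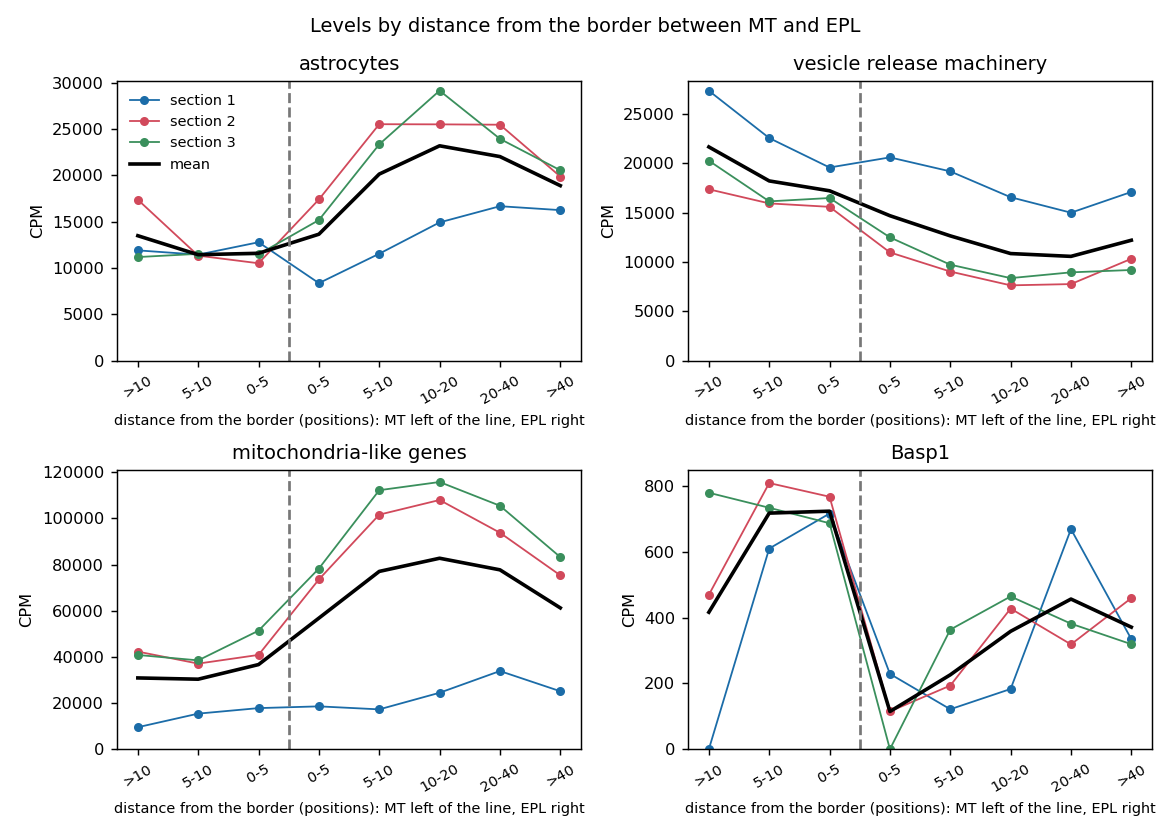
CPM by distance from the border between the layers, in array positions, with MT left of the dashed line and EPL right of it; coloured lines are sections and the black line is their mean. Astrocyte genes are flat in MT and rise over the first 10 to 20 positions of EPL, and vesicle release genes fall over the same distance. Basp1 is lower in the EPL bin next to the border than in MT, but its 4 counts in that bin are too few to place a step.

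The position of the change relative to the drawn border was described by sorting spots by distance. MT was thin: the median MT spot lay 4.56, 4.37 and 5.24 array positions from EPL in sections 1, 2 and 3. In EPL within 5 positions of MT, astrocyte genes were at 8362, 17409 and 15180 CPM, and between 10 and 20 positions they were at 14927, 25525 and 29167 CPM. Each section thus had less near MT. In MT they were at 11590, 11435 and 13488 CPM (means of 3 sections) in bins up to 5, up to 10 and beyond 10 positions from EPL, and the last of these, with 90 counts, had an SD of 3389 CPM. Mitochondria-like genes showed a like course, with a mean of 56784 CPM next to MT and 82712 CPM at 10 to 20 positions. Vesicle release genes ran the other way in each section, from a mean of 14698 CPM next to MT to 10856 CPM at 10 to 20 positions. Cck was at 802, 460 and 406 CPM in EPL within 5 positions of MT, at 366, 428 and 310 CPM between 10 and 20 positions and at 1376, 506 and 811 CPM beyond 40. Its mean was thus highest in the outer EPL and lowest, 202 CPM from 6 counts, at 5 to 10 positions. Scg2 had means of 320 to 405 CPM in the 5 EPL bins and was at 809 and 720 CPM in the 2 MT bins nearest EPL.

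When all spots within 5 positions of another region were left out, MT kept 941, 2990 and 5006 counts, 5.97%, 8.47% and 15.6% of its sums. At that depth 40 genes were higher in EPL, 31 of them among the 61, and none was higher in MT. The median log2 difference of all genes moved to 1.11, but the test was still against 0, which favours calls higher in EPL. Slc1a2 and Glul kept their calls on differences of 2.76 and 2.14. Snap25 and Scg2, at 0.37 and 0.094, did not pass. Relative to the median these genes were at 1.65, 1.03, -0.74 and -1.02, which was not tested. Astrocyte genes kept 7 of their 10 calls and mitochondria-like genes all 9. These calls are against 0 too, so they do not show differences beyond the median.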

How the data were processed

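The authors deposited, for each of 3 sections, raw counts per spot and gene and a table with each spot's array position, pixel position and region. Per the submitters' processing notes the build was mm10, and the aligner, counter and annotation, the use of molecular identifiers and of strand are not given in the sources used here. Each entry took its region through its pixel position, and this matched all but 1 entry of section 1 and 100% in sections 2 and 3. Counts without a gene name (0.0325%, 0.0764% and 0.0801% of the section totals of 344372, 650890 and 505710) and spots of unknown region were left out.

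Counts were summed per section and region (27 sums) and tested with edgeR 4.0.16 (R 4.3.3; model terms region and section, scaled by TMM, filterByExpr by region, minimum count 10). SEs are the size of the log2 difference over the square root of F. CPM is over all named-gene counts of a sum. The section pairs the layers, since both sums come from the same tissue. Correlations of deviations were 0.63, 0.45 and 0.37 within sections 1, 2 and 3, and 0.43 and 0.38 between sections 2 and 3. They set section 1 apart and do not show a pairing within sections 2 and 3.

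Named genes were, in each direction, up to 12 with the largest difference among called genes with the same direction in 3 of 3 sections and at least 30 counts in the higher layer (the next by p up to 6 where fewer passed), and up to 4 leading or called members of each list. The members and the 33 lists were chosen with earlier results of these data known. Some genes are counted but not reported here by name. Some genes were named after their values were seen: Lars2, the genes without counts in section 1, Gpm6b, Ahcyl1, Ptn, Ptprz1, Vtn and markers with too few counts to test. Annotation was GENCODE M21 (19582 of 19621 symbols found); copies of mitochondrial transcripts were found with blastn 2.17.0. The pipeline was tested on simulated counts. Alternatives were other scalings, no filter, 6 sums alone, no section block, DESeq2 1.42.0, a join by spot name, leaving out a section, the rostral migratory system or spots near another region, and, chosen after seeing the data, leaving out the mitochondria-like genes. Python 3.11.15, pandas 2.3.3, scipy 1.17.1 and matplotlib 3.10.9 were used.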

Additional observations from a re-analysis of the deposited data

Results flagged for a closer look

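Counts outside the comparison were present in each section: spots that the annotation places in no known region held 42, 5699 and 3435 counts in sections 1, 2 and 3. Entries without a gene name held 112, 497 and 405 counts. Both were left out of the sums.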

How the results depend on the processing

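The main counts were 65 genes in all, 61 higher in EPL and 4 higher in MT. Without the section block, which pairs the layers, 0, 0 and 0 genes were called (84 at an unadjusted p below 0.05, edgeR). Leaving out one section gave 8 to 91 in all, 8 to 71 higher in EPL and 0 to 20 higher in MT, the lowest without section 2 and the highest without section 1 (15, 15 and 0 without section 3). DESeq2 gave 42, 29 and 13. Genes higher in MT numbered 13 with RLE scaling, 37 with library sizes alone, 7 without the rostral migratory system and 0 without a filter on low counts. Without spots near another region the counts were 40, 40 and 0, and the differences of Scg2 (0.094), Snap25 (0.37), Map2k1 (0.49), Vamp2 (1.17) and Basp1 (2.76) turned positive, with the median of all genes at 1.11. The cause was not tested in these cases. The log2 ratio of counts per spot, MT over EPL, was 0.59, against 0.39 over spots with counts and 0.51 without spots near another region. The fits on 6 sums, the join by name and the fit without the mitochondria-like genes kept the total and the count higher in EPL within 1.5 times.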
